A study of Schizosaccharomyces pombe with 10 samples.

Results

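The genes described here encode the protein subunits of the cytosolic ribosome of the fission yeast Schizosaccharomyces pombe. They were taken as the rows whose systematic ID carries a symbol that begins with rpl (large subunit) or rps (small subunit) followed by a digit, a rule that uses no expression value. It found 131 of the 7017 rows, 76 for the large subunit and 55 for the small subunit, out of 132 such symbols in the reference annotation. The annotation names a ribosomal protein as the product of 130 of them, and gives rpl44 an L28e protein family domain.

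Polyadenylated RNA was sequenced from exponential cultures in minimal medium, grown to an OD600 of 0.5, with 1 library for each of 5 strains after 1 mM hydrogen peroxide for 15 min and 1 for each without treatment. STY lacks the stress-activated MAP kinase Sty1 and carries wild-type Atf1, the bZIP transcription factor that Sty1 phosphorylates. By their labels HA, 10M and 10D also lack sty1 and carry HA-tagged Atf1 in the wild-type, unphosphorylatable (Atf1.10M) and phosphomimicking (Atf1.10D) form, and WT is the wild type with wild-type Atf1. The series set these forms of Atf1 side by side in basal conditions and after peroxide. How the tagged alleles were introduced, how many clones stand behind a strain and whether the cultures were independent are not given in the sources used here.

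The total counts per library ran between 9178795 in untreated HA and 26503471 in treated 10D. Depth followed strain, with 9178795 to 10745498 counts in WT, STY and HA and 16920081 to 26503471 in 10D and 10M. Depth and strain cannot be told apart, also inside the pool of STY, HA and 10M used below. Counts of the deleted gene were checked first, and they go against 3 of the 4 deletion labels. Scaled CPM (counts over the library total after TMM scaling, with the total set to 1e+06) for sty1 were 9.11 in treated and 8.92 in untreated STY, against 305 in treated and 267 in untreated WT. The libraries labelled HA, 10M and 10D had 101 to 130 CPM of sty1, well above STY. Untreated atf1 was lowest for STY (69.3 CPM), then WT (143 CPM), 10M (358 CPM), 10D (524 CPM) and HA (556 CPM). Treated STY had 30.4 CPM of atf1, below 10M (398 CPM), WT (643 CPM), HA (660 CPM) and 10D (744 CPM). Untreated leu1 ran from 2767 to 4464 CPM over HA, 10M and 10D, against 540 CPM in WT and 757 CPM in STY. The strains thus differ in atf1 mRNA level besides the form of Atf1, also inside the pool, and no comparison here separates these. After peroxide the Sty1-Atf1 stress gene srx1 had 82.8 CPM in HA and 127 CPM in 10M. It had 34.5 CPM in STY, 3722 CPM in 10D and 4044 CPM in WT. Whether the sty1 reads come from a working gene was not tested. For these strains the name stands for the library label, and counts of called genes without a strain are given beside the tests that change with it.

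Ribosomal protein genes are among the most strongly transcribed genes of a growing yeast cell, and their products assemble with ribosomal RNA in near-equal numbers. Most of the proteins are encoded by duplicated genes, so a family is a pair of copies with nearly the same product. In fission yeast many of these promoters carry the HomolD box, which takes the place of a TATA box, often with a HomolE box farther from the start. Stress and nutrient limitation are known to lower ribosomal protein mRNA in yeasts as growth slows, and the TORC1 pathway is a main regulator of these genes.

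The promoters of 4 families are shown because the results turn on their copies. Each run is the 150 bases before the annotated transcript start in RefSeq assembly ASM294v3, on the gene's own strand and 5′ to 3′. Capitals mark the HomolD box (CAGTCACA or its reverse complement TGTGACTG) and the HomolE box (a direct repeat of ACCCT, or of AGGGT on the other strand).
rps1401: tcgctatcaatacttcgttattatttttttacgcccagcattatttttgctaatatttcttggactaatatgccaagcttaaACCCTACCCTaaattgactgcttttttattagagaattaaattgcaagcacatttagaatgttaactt
rps1402: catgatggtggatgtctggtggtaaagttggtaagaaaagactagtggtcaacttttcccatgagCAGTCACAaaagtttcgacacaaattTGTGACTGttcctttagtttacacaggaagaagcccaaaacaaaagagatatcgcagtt
rps2202: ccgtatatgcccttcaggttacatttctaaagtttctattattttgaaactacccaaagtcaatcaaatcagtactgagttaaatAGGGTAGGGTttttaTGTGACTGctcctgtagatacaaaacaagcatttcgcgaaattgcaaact
rps2201: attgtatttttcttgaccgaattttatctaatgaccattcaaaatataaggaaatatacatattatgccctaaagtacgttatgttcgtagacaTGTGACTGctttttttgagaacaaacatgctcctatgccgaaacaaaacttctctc
rpl3002: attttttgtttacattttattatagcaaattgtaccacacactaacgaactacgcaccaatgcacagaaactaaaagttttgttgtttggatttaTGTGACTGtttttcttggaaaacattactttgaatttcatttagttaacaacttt
rpl3001: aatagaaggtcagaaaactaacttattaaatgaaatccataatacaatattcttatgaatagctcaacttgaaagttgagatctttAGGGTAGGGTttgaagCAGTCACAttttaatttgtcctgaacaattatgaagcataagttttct
rps1801: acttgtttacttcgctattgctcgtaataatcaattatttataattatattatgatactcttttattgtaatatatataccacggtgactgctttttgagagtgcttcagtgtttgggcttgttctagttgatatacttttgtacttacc
rps1802: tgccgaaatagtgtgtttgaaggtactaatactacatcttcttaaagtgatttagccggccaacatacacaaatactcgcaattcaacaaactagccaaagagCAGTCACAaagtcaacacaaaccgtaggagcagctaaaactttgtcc
A HomolD box stood in the 250 bases before the transcript start of 84 of 131 ribosomal protein genes (64.1%). It stood there in 134 of all 5123 protein-coding genes, the ribosomal protein genes included (2.62%). Its median distance to the start was 51 bases. A HomolE box stood in the same window of 40 ribosomal protein genes (30.5%), at a median distance of 70 bases. It stood there in 62 of the same 5123 protein-coding genes (1.21%). Both strands were searched for exact matches, and the letters of the boxes do not overlap. A match in these letters is a description of the window and not a measured binding site. The responses differed little between genes with and without an exact match to the HomolD box. Near matches were not searched for, so genes counted as without a box can still carry a near match. The median log2 ratio of treated to untreated CPM for the 84 genes with a HomolD box was 0.43 in STY, 0.38 in HA, 0.15 in 10M, 0.01 in 10D and -0.23 in WT. For the 47 genes without one it was 0.43 in STY, 0.39 in HA, 0.14 in 10M, -0.05 in 10D and -0.27 in WT.

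The ribosomal protein genes took a larger part of the mRNA after peroxide in STY, HA and 10M, and a smaller part in WT. They held 21.1% of the counts in treated and 17.4% in untreated STY. They held 20.4% in treated and 17.0% in untreated HA, and 16.9% in treated and 15.7% in untreated 10M. In 10D the share was 15.8% in the treated and 16.0% in the untreated library. In WT it was 12.2% in the treated library, the lowest of the 10, against 15.9% in the untreated one. The exact 95% binomial intervals of these shares are at most 0.0514 points wide, and they cover counting error only. Among the untreated libraries the share spanned 15.7% to 17.4%, and among the treated ones 12.2% to 21.1%. There is 1 library a group, so these differences have no replicate check. The shares are relative to other mRNA, and the amount of RNA per cell was not measured, so a lower share and more RNA of other genes cannot be told apart.

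**Figure D1:**
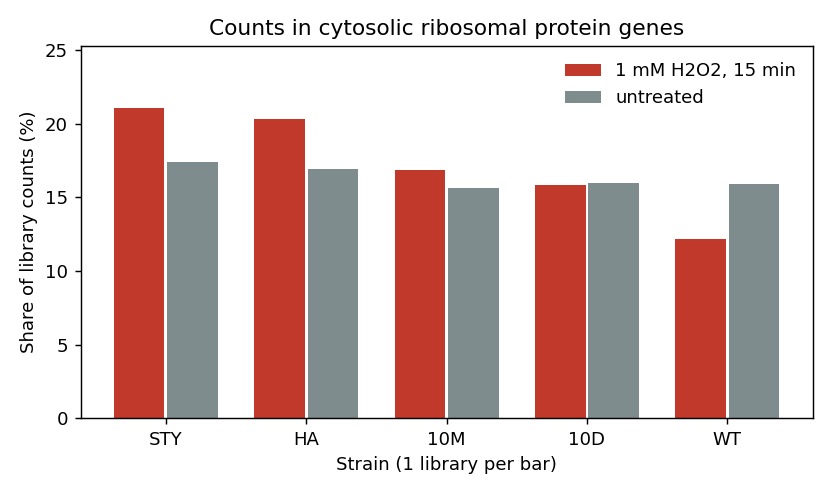
Share of all counts (%, vertical axis) in the 131 ribosomal protein genes in each of the 10 libraries, with treated (red) left of untreated (grey) bars for each strain. Treated STY and HA reach 21.1% and 20.4%, and treated WT is lowest at 12.2%.

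The direction of the share held for most single genes. With TMM scaling and a prior count of 2, the median log2 ratio of treated to untreated CPM was 0.43 in STY, 0.39 in HA, 0.15 in 10M, -0.01 in 10D and -0.26 in WT. All 4983 genes that averaged 10 CPM or more, the ribosomal protein genes included, had a median between -0.03 and -0.09 in every strain. In STY 130 of 131 ribosomal protein genes had a ratio above 0 and 1 below, where 46.7% of the 4983 genes were above and 53.3% below. In HA 129 were above and 2 below, and in 10M 116 were above and 15 below, where 42.8% of the 4983 genes were above and 57.2% below in either strain. In 10D 63 were above and 68 below, where 44.8% of the 4983 genes were above and 55.2% below. In WT 18 were above and 113 below, where 45.6% of the 4983 genes were above and 54.4% below. The size of a typical change was modest, a fold of 1.34 for the median gene in STY and of 0.837 in WT. Scaling by total counts moved the medians of all genes by over 0.1 in STY, HA and WT. The ribosomal protein median stood 0.46 above that of all genes in STY, 0.48 above in HA and 0.22 above in 10M with TMM, and 0.19 below in WT (-0.19). Another scaling shifts the log2 ratios of all genes in a strain alike, so these distances could hardly change and are no check on the scaling. They were 0.46, 0.48, 0.22 and -0.19 with total counts too. For 10D the sign of the median depends on the scaling, since it was 0.019 with DESeq2 size factors.

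Of the 131 genes 98 had a ratio below 0 in WT and above 0 in STY, HA and 10M (74.8%), as had 14.2% of the 4983 genes. Treated WT was below all 4 other treated libraries for 126 ribosomal protein genes (96.2%), and for 28.2% of the 4983 genes. The highest level of the 10 libraries was in treated STY or treated HA for 121 of them (92.4%), where the figure for the 4983 genes was 24.8%. Among untreated libraries WT was the lowest for 54 (41.2%), and for 24.3% of the 4983 genes. The 10D ratio lay between that of WT and the lowest of STY, HA and 10M for 82 genes (62.6%), as it did for 16.2% of the 4983 genes. These counts describe 1 library per condition, and the genes are not independent replicates. A ratio above 0 in all 5 strains was seen for 17 genes (13.0%), 13 of the large and 4 of the small subunit, and for 10.9% of the 4983 genes. A ratio below 0 in all 5 was seen for rps1401 alone (0.763%), and for 17.7% of the 4983 genes.

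**Figure D2:**
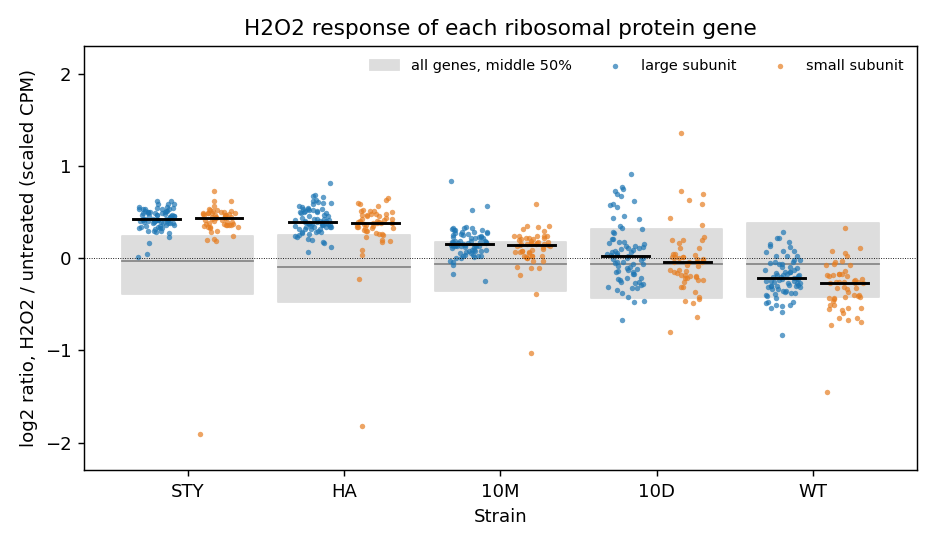
log2 ratio of treated to untreated scaled CPM (vertical axis) for each large-subunit (blue) and small-subunit (orange) gene in the 5 strains, with black bars at the subunit medians and grey boxes for the middle 50% of the 4983 genes. The clouds sit above 0 in STY, HA and 10M and mostly below 0 in WT. The lowest point in every strain is rps1401, which stands alone except in 10D, where it is at -0.80 and rpl4101 at -0.67.

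The medians of the large and the small subunit lay close together. The large-subunit and small-subunit medians of the log2 ratio were 0.42 and 0.44 for STY, 0.39 and 0.38 for HA, 0.16 and 0.14 for 10M, 0.02 and -0.04 for 10D, and -0.22 and -0.27 for WT. Large-subunit genes held between 56.1% and 57.7% of the ribosomal protein counts in all 10 libraries. The spread between genes was narrow beside that of the whole table. Without rps1401 the SD of the log2 ratio over ribosomal protein genes was 0.11 in STY, 0.15 in HA, 0.15 in 10M, 0.34 in 10D and 0.22 in WT, where the 4983 genes had 0.57, 0.71, 0.54, 0.89 and 0.97.

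Groups of proteins by place in the ribosome are described by their median log2 ratio. The proteins uL2, uL3 and uL16, which lie around the peptidyl transferase centre, have 7 genes (rpl801, rpl802, rpl803, rpl301, rpl302, rpl1001, rpl1002). Their median log2 ratio was 0.36 in STY, 0.33 in HA, 0.15 in 10M, 0.28 in 10D and -0.19 in WT. The 7 genes for uL4, uL22, uL23 and eL39, which line the exit tunnel or its end, had medians of 0.38 in STY, 0.34 in HA, 0.17 in 10M, 0.07 in 10D and -0.27 in WT. The proteins uL5 and uL18, which join the large subunit together with its smallest ribosomal RNA, have 4 genes with medians of 0.40 in STY, 0.37 in HA, 0.13 in 10M, 0.04 in 10D and -0.24 in WT. The genes for eS6, the small-subunit protein phosphorylated downstream of TORC1, are rps601 and rps602, with medians of 0.37 in STY, 0.37 in HA, 0.12 in 10M, 0.12 in 10D and -0.22 in WT. For rps23 and rps2302, the genes for the decoding-centre protein uS12, the medians were 0.33 in STY, 0.22 in HA, 0.02 in 10M, -0.09 in 10D and -0.31 in WT.

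The gene rps1401 (SPAC3H5.05c), 1 of a pair of copies for the platform protein uS11, was low after peroxide in every strain. It had 89.2 CPM in treated and 336 CPM in untreated STY, and 82.9 CPM in treated and 293 CPM in untreated HA. It had 131 CPM in treated and 267 CPM in untreated 10M, and 148 CPM in treated and 258 CPM in untreated 10D. WT had 102 CPM in the treated and 279 CPM in the untreated library. No treated library reached the lowest untreated one. The response common to the 5 strains, fitted with strain and treatment as terms, was -1.40 (SE 0.194, adjusted p = 0.0314, edgeR's quasi-likelihood test with Benjamini-Hochberg adjustment). It was the only ribosomal protein gene called lower in that fit, where 2.84% of the 6097 genes tested were. No ribosomal protein gene was called higher with edgeR, where 2.07% of all genes were, and 13 were higher at an unadjusted p under 0.05. DESeq2 called 9 higher and 1 lower. With any 1 strain left out edgeR called none of the 131.

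The other copy, rps1402 (SPBC18H10.13), had ratios close to those of the rest of the set. It had 1395 CPM in treated and 994 CPM in untreated STY, and 1451 CPM in treated and 968 CPM in untreated HA. WT had 674 CPM of it in the treated and 846 CPM in the untreated library. Per kilobase of exon, rps1401 made up 5.93% of the pair in treated and 25.0% in untreated STY, 5.33% in treated and 23.0% in untreated HA, and 13.0% in treated and 26.2% in untreated 10M. Its share was 14.0% in treated and 22.3% in untreated 10D, and 13.0% in treated and 24.6% in untreated WT. The change was -14.0 percentage points on average over the strains and negative in 5 of 5. The promoters printed for the pair differ, in that rps1401 has a HomolE box and no HomolD box in the bases printed, and rps1402 has 2 HomolD boxes. In ASM294v3 rps1401 lies on the strand opposite to aar2, which covers 582 bases of it, all of its exon length. The log2 ratio of aar2, a splicing factor gene, was 0.33 in STY, 0.27 in HA, 0.16 in 10M, 0.43 in 10D and 0.99 in WT. No source used here says whether reads were counted by strand. The noncoding gene SPNCRNA.933 lies opposite to rpl1002 and covers 761 bases of it, all of its exon length. In treated HA SPNCRNA.933 had 3.12 CPM and rpl1002 750 CPM. Whether reads of rps1401 and aar2 were told apart where they overlap was not tested.

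The gene rps2202 (SPAC5D6.01), a copy for the small-subunit protein uS8, stood out in 10D. It had 817 CPM in treated and 318 CPM in untreated 10D, a log2 ratio of 1.36 with a counting interval of 1.32 to 1.40. Elsewhere the ratio was 0.18 for STY, 0.29 for HA, 0.59 for 10M and 0.33 for WT. It was the only ribosomal protein gene at least 2-fold higher in any strain, and only in 10D, where 7.37% of the 4983 genes were. The share of the 4983 genes at least 2-fold higher was 1.14% for STY, 4.05% for HA, 2.95% for 10M and 9.41% for WT. The only one at least 2-fold lower was rps1401. It was so in STY, HA, 10M and WT, where 6.74%, 7.57%, 3.31% and 6.46% of the 4983 genes were, and not in 10D, where 7.22% were. The excess of the 10D response of rps2202 over that of the pool of STY, HA and 10M was 1.02 (SE 0.411, adjusted p = 0.183, edgeR's quasi-likelihood test), which did not pass. Its copy rps2201 (SPAC22A12.04c) had 1011 CPM in treated and 977 CPM in untreated 10D. The share of rps2202 in the pair was 36.1% in treated and 18.6% in untreated 10D, against 19.2% in treated and 22.9% in untreated STY. Both promoters carry a HomolD box, and rps2202 has a HomolE box beside it.

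The gene rpl3002 (SPAC1250.05), the minor copy for eL30, had the highest common response among the 131 genes, 0.59 (SE 0.158, adjusted p = 0.0725, edgeR's quasi-likelihood test), which did not pass. It had 237 CPM in treated and 162 CPM in untreated STY, and 277 CPM in treated and 157 CPM in untreated HA. It had 179 CPM in treated and 100.1 CPM in untreated 10M, and 219 CPM in treated and 129 CPM in untreated 10D. WT was the exception, with 105 CPM in the treated and 110.1 CPM in the untreated library. The major copy rpl3001 had a log2 ratio of 0.47 in STY, 0.49 in HA, 0.19 in 10M, -0.26 in 10D and -0.41 in WT. The next highest common responses were those of rps2202 (0.55), rpl1902 for eL19 (0.40), rpl1601 for uL13 (0.40), rpl1502 for eL15 (0.39), rpl402 for uL4 (0.38), rpl22 for eL22 (0.36) and rpl1802 for eL18 (0.35), none of which passed. Low common responses besides rps1401 were those of rpl44 (-0.16), rps3002 for eS30 (-0.14), rpl3402 for eL34 (-0.08), rps2302 for uS12 (-0.06), rpl4102 for eL41 (-0.05) and rps1601 for uS9 (-0.05), which did not pass either. On the other strand pli1 covers 464 bases of rpl44.

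**Figure D3:**
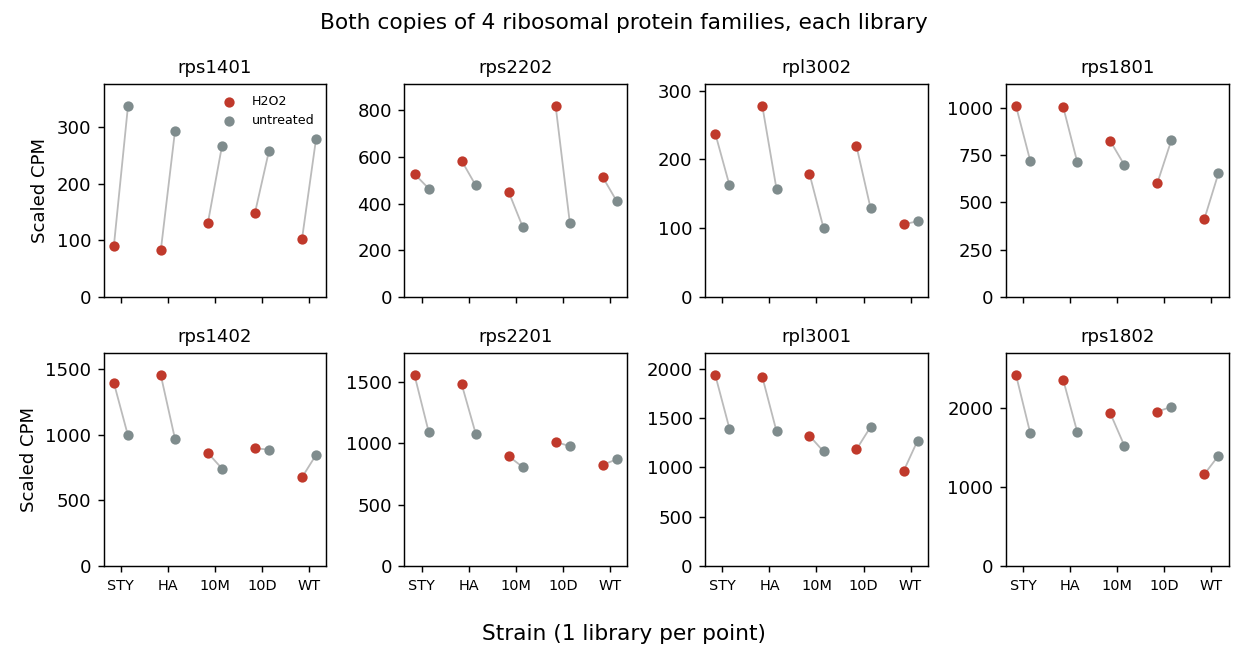
Scaled CPM (vertical axis, from 0) of both copies of 4 families in the 10 libraries, with treated (red) left of untreated (grey) for each strain. Treated rps1401 lies below untreated in all 5 strains, treated rps2202 is highest in 10D at 817 CPM, and treated rps1801 is below untreated in 10D and WT and above it in STY, HA and 10M.

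To set the strains against each other, STY, HA and 10M were taken as a pool of 3, so that the spread between them gave the error, and WT and 10D were each assumed to vary as they do. The pooled strains differ in genotype and in atf1 mRNA level, and are not replicates of one strain. All 131 genes passed the count filter in this fit. With edgeR 5 of the 131 were called higher after peroxide in the pool, a share not above the 5.18% of all 6176 genes. They were rps2801 for eS28 (0.55), rpl35 for uL29 (0.55), rpl3802 for eL38 (0.48), rpl3602 for eL36 (0.47) and rpl3202 for eL32 (0.43). Their adjusted p in edgeR's quasi-likelihood test ran between 0.0398 and 0.0488. The gene rps1401 was called lower (-1.56, SE 0.200, adjusted p = 0.0104, edgeR's quasi-likelihood test), where 10.3% of 6176 genes were. The median over the 131 genes was 0.33, and over all genes tested -0.01. The block fit given next has 2 residual degrees of freedom, against 4 in this fit. Fitting each strain with its own baseline, as a block that pairs its treated with its untreated library, gave 68 higher and 1 lower, where 13.3% of all 6176 genes were called higher and 18.1% lower. Without STY or without HA no gene was called, without 10M 64 were higher and 1 lower, and without WT 2 were higher and 1 lower.

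As an example of the genes that rose in the pool, rps2801 had 885 CPM in treated and 536 CPM in untreated STY, 824 CPM in treated and 559 CPM in untreated HA, and 663 CPM in treated and 534 CPM in untreated 10M. Its 10D values were 546 CPM in the treated and 632 CPM in the untreated library. WT had 394 CPM in the treated and 522 CPM in the untreated library. Every treated library of the pool was above every untreated one, and treated WT was the lowest of the 10.

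Between untreated WT and the untreated pool few genes of any kind were called. Differences between WT and the pool are WT minus pool, so a negative value is lower in WT. Neither edgeR nor DESeq2 called any of the 131 genes, and in edgeR 0 reached an unadjusted p under 0.05. Of all 6176 genes 0.0486% were called higher and 0.0162% lower in WT. The median over the 131 genes was -0.14, against -0.0015 over all genes tested, and 115 of them were below 0. Leaving out any 1 of the other strains called none of the 131 either. The lowest were rpl1602 for uL13 (-0.70), rps001 for uS2 (-0.50), rpl301 for uL3 (-0.47) and rpl13 for eL13 (-0.44), and the highest were rpl22 (0.16), rps29 for uS14 (0.14), rpl1603 (0.14) and rps3002 (0.13).

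After peroxide the distance was wide. With edgeR 56 genes were called lower in treated WT than in the treated pool and none higher, 32 of the 76 large-subunit and 24 of the 55 small-subunit genes, and at an unadjusted p under 0.05 there were 94 lower and 0 higher. Of all 6176 genes 16.4% were called lower and 21.5% higher in treated WT. The median difference was -0.75 over the 131 genes, -0.70 over the large and -0.80 over the small subunit, against 0.01 over all genes, and 130 of the 131 were below 0. The count was 100 with DESeq2 and 88 with total counts. Leaving out STY gave 8, leaving out HA 0 and leaving out 10M 125.

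The gene rps1801 (SPBC16D10.11c), a copy for uS13 of the small-subunit head, was among the clearest. It had 1006 CPM in treated STY, 1004 CPM in treated HA and 824 CPM in treated 10M, against 410 CPM in treated WT. Untreated it had 719 CPM in STY, 712 CPM in HA and 697 CPM in 10M, against 652 CPM in WT. The treated difference was -1.21 (SE 0.189, adjusted p = 0.00424, edgeR's quasi-likelihood test). It is the gene among the 8 promoters printed with an exact match to neither box in its 150 bases, and its copy rps1802 has a HomolD box. Near matches, such as the ggtgactg in the printed rps1801 promoter, were not searched for.

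Copies for uL13 and eS4 were also far apart. The uL13 gene rpl1602 (SPAC23A1.11) was lower in WT before treatment too. Untreated it had 1108 CPM in STY, 1031 CPM in HA and 790 CPM in 10M, against 601 CPM in WT. After peroxide it had 1391 CPM in treated STY, 1206 CPM in treated HA and 811 CPM in treated 10M, against 485 CPM in treated WT. Its difference was -1.23 (SE 0.348, adjusted p = 0.0307, edgeR's quasi-likelihood test). The eS4 gene rps403 had 2155 CPM in treated STY, 2081 CPM in treated HA and 1392 CPM in treated 10M, against 842 CPM in treated WT. The difference was -1.16 for rps403 and -1.13 for rpl3002, and both passed. At the other end stood rps1401 (0.01), rps2202 (-0.02), rpl22 (-0.03) and rpl302 (-0.20), which did not pass. The gene rpl22 had 2709 CPM in treated STY, 3011 CPM in treated HA and 2237 CPM in treated 10M, against 2604 CPM in treated WT, so its WT value lay inside the range of the pool.

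The response of WT, set against the response of the pool, was below 0 for 130 of 131 genes, with a median difference of -0.59 (0.03 over all genes tested). None was called with edgeR, where 1.98% of 6176 genes were called lower and 3.47% higher. At an unadjusted p under 0.05 there were 27 lower and 0 higher, and DESeq2 called 6 lower. The lowest were rps1801 (-1.09, SE 0.249, adjusted p = 0.0538, edgeR's quasi-likelihood test), rps403 (-1.06), rpl44 (-0.98) and rps2801 (-0.95). The highest were rps1401 (0.10), rps2202 (-0.01), rpl301 (-0.08) and rpl401 (-0.15). With each strain's own baseline as a block that pairs its libraries, 23 were called lower and 0 higher, where 6.78% of all 6176 genes were called lower and 10.4% higher. Without the block, 49 were called lower when 10M was left out, and 0 when STY, HA or 10D was left out.

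**Figure D4:**
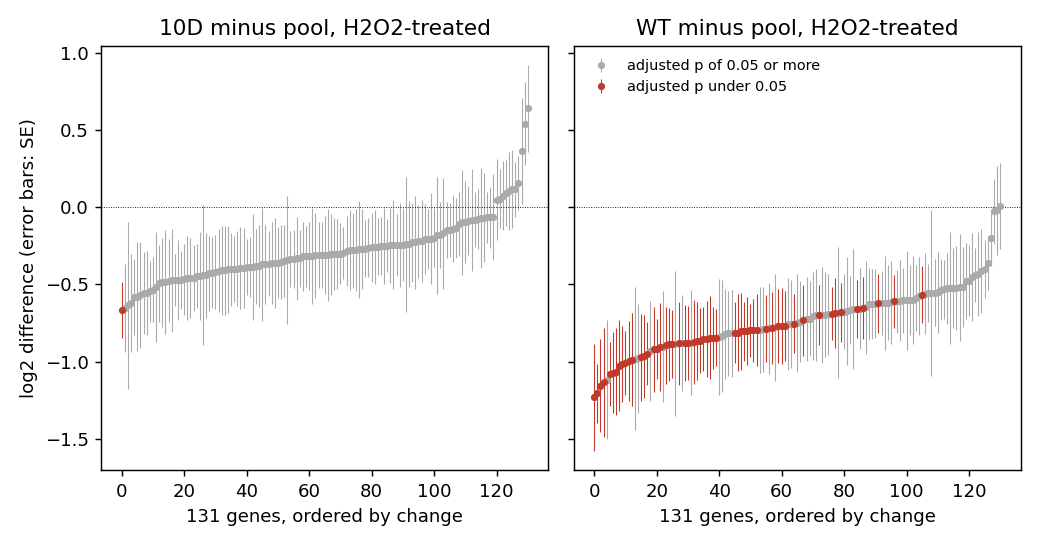
log2 difference from the pool of STY, HA and 10M after peroxide (vertical axis, with SE bars) for the 131 genes ordered by value, for 10D (left) and WT (right), with genes at an adjusted p under 0.05 in red. In WT 56 genes are red and all are below 0, and in 10D the single red gene is rps1801 at -0.67.

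The library labelled 10D was set against the same pool, so the comparisons share those libraries. Untreated, none of the 131 genes was called with edgeR or DESeq2 (2.32% of 6176 genes were called higher and 0.356% lower), and 5 were higher at an unadjusted p under 0.05. The highest were rpl4101 for eL41 (0.57), rpl3703 for eL37 (0.52), rpl1201 for uL11 (0.51) and rps2502 for eS25 (0.50), and the lowest rpl15 (-0.83), rps001 (-0.82), rpl1602 (-0.76) and rps1002 for eS10 (-0.68). Without 10M the untreated comparison called 7 genes, 3 higher and 4 lower, and without WT, STY or HA it called 0. After peroxide 1 gene was called lower in 10D, rps1801 (-0.67, SE 0.182, adjusted p = 0.0318, edgeR's quasi-likelihood test), and none higher. Of all 6176 genes 12.4% were called lower and 18.6% higher. The median over the 131 genes was -0.31, and 120 of them were below 0. Treated 10D had 600 CPM of rps1801, against 1006 CPM in STY, 1004 CPM in HA and 824 CPM in 10M. Low values were also those of rpl101 for uL1 (-0.65) and rps1502 for uS19 (-0.62), and the highest were rps2202 (0.64), rps1401 (0.54), rpl1603 (0.36) and rpl302 (0.16), which did not pass. DESeq2 called 5 lower and total counts 4 lower. Without STY or HA none was called, and without 10M 84 were lower and 2 higher.

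Against the response of the pool, that of 10D had a median difference of -0.38 over the 131 genes (0.01 over all genes), and none was called with edgeR. At an unadjusted p under 0.05 there were 1 higher and 13 lower, and DESeq2 called 4 lower. Of all 6176 genes 2.95% were called higher and 1.93% lower. The lowest were rpl4101 (-1.04), rps1801 (-0.89), rps3002 (-0.82) and rps2502 (-0.77). The highest were rps2202 (1.02), rps1401 (0.75), rpl1602 (0.69) and rps001 (0.45). With a block for strain, pairing its libraries, 1 was called higher and 2 lower, where 7.61% of all 6176 genes were called higher and 6.2% lower. Without the block, leaving out 10M gave 1 higher and 16 lower, and leaving out WT, STY or HA gave 0. The gene rpl1602 had 1090 CPM in treated and 578 CPM in untreated 10D, so it was low in untreated 10D and inside the pool's range after peroxide. The gene rpl4101 ran the other way, with 815 CPM in treated and 1296 CPM in untreated 10D, against 1193 CPM in treated and 848 CPM in untreated STY.

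The 131 genes form 74 families, 20 with a single gene, 51 with 2 copies and 3 with 3 copies. The coding sequences of the 2-copy families are 66.1% to 99.6% identical, with a median of 87.8%. Per kilobase of exon the top copy was under 1.5 times the lowest in 21 of the 54 families with copies, at least 2 times in 20, and 1.80 times in the median family. The most unequal were rpl16 (22.2 times, with rpl1603 the low copy), rpl34 (21.5 times, rpl3402 low), rpl30 (8.65 times, rpl3002 low), rpl1 (6.41 times, rpl102 low), rpl12 (4.89 times, rpl1201 low) and rps14 (4.80 times, rps1401 low). The annotated exons of rpl1603 span 2640 bases for a coding length of 594, and overlap apl1 on the other strand. Reads that match both copies cannot be assigned, and of the 131 genes 99 share no run of 50 bases with another transcript. In rpl1201, rpl1202, rpl301 and rpl302 over 50% of such runs are shared, so their levels are uncertain.

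Described without a test, the copies of a family differed in response about as much as any pair of ribosomal protein genes. The median absolute difference of log2 ratio between the 2 copies of a family was 0.08 in STY, 0.12 in HA, 0.13 in 10M, 0.22 in 10D and 0.21 in WT. Between any 2 genes of the set it was 0.10 in STY, 0.13 in HA, 0.12 in 10M, 0.29 in 10D and 0.21 in WT. In 20 of the 54 families the share of a copy moved with 1 sign in all 5 strains, and in 26 the largest mean change was under 2 percentage points. Besides rps14, large mean changes, treated minus untreated, were in rpl20 (rpl2001, 4.90 points), rpl38 (rpl3801, -4.68), rpl19 (rpl1901, -4.62) and rps22 (rps2202, 4.54). The first 3 of these had 1 sign in 5 of 5 strains, and rps2202 was positive in 3 of 5. In the 3-copy family of uL2, rpl801 held 57.4% of the treated and 53.3% of the untreated 10D level, the largest shift of that copy. In the 3-copy family of eS4, rps403 held 30.2% in treated and 29.2% in untreated STY, against 24.7% in treated and 31.3% in untreated WT.

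**Figure D5:**
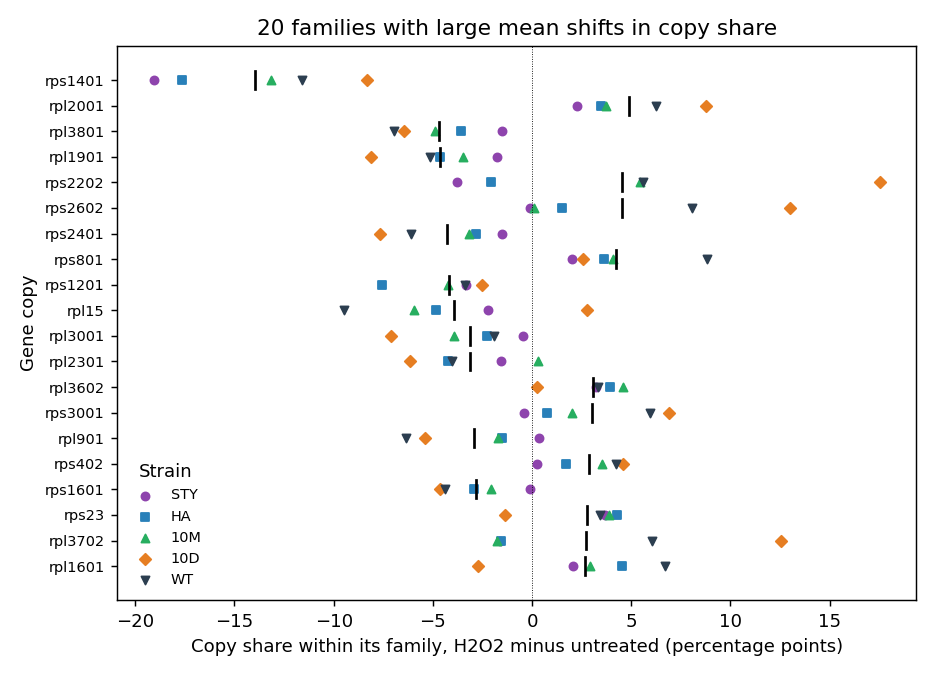
Treated minus untreated share of 1 copy within its family (percentage points, horizontal axis) for 20 families with large mean changes, with 1 symbol per strain and a black bar at the mean. The rps1401 symbols all lie left of 0 around a mean of -14.0 points, and the 10D symbol of rps2202 lies farthest right.

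Levels per kilobase of exon differed widely between genes, with a mean over the 10 libraries of 52.2 to 5557 CPM per kb and a median of 1993 CPM per kb. The median over 4971 genes with a length and at least 10 CPM was 39.6 CPM per kb. The highest were rps2502 for eS25 (5557 CPM per kb), rpl3401 for eL34 (4738), rps21 for eS21 (4680), rpl22 for eL22 (4591) and rps20 for uS10 (4530). The lowest were rpl1603 (52.2 CPM per kb), rpl1201 (112), rpl3402 (217), rpl3002 (299) and rps1401 (341), each the low copy of a family. Single-copy genes had a median of 3619 CPM per kb and genes with copies 1779 CPM per kb. Summed over copies, the families came to a median of 3989 CPM per kb, close to the single-copy genes. Large-subunit families had a median sum of 3873 CPM per kb and small-subunit families 3706 CPM per kb.

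Other ribosomal and translation genes are given as counts and medians, with calls of treated WT against the treated pool read beside the 16.4% lower and 21.5% higher of all 6176 genes. The 7 genes of the ribosomal stalk, which binds translation factors, had median log2 ratios of 0.39 in STY, 0.32 in HA, 0.10 in 10M, 0.03 in 10D and -0.30 in WT, and 3 of 7 were called lower in treated WT than in the treated pool (edgeR). The most divergent stalk gene was rpp103, with a log2 ratio of 0.38 in STY and -1.49 in WT, and rpp0 had 0.23 in STY and 0.26 in WT. Of 5 genes for ubiquitin fused to ribosomal proteins and for the RACK1 protein Cpc2, 3 were called lower, with medians of 0.48 in STY and -0.25 in WT. Ubi3 had 0.49 in STY and 0.13 in WT, and ubi2 had 0.46 in STY and -0.57 in WT. The 26 genes listed as translation initiation factors had medians of 0.30 in STY and -0.0024 in WT, with 9 lower and 1 higher. The higher one was csn71, whose symbol does not mark an initiation factor. Elongation and termination factors had 0.25 in STY and -0.08 in WT, with 3 of 10 lower.

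Genes that make or regulate ribosomes follow. The 95 ribosome biogenesis factors had medians of 0.06 in STY, 0.29 in HA, 0.14 in 10M, 0.45 in 10D and 0.28 in WT, and 19 were called lower and 6 higher in treated WT than in the treated pool. Among them dbp2, an RNA helicase gene, had 0.24 in STY and 0.98 in WT, and rio2, for a kinase of late small-subunit assembly, had 0.32 in STY and 1.11 in WT. At the low end lsg1, for a GTPase of late large-subunit assembly, had -0.20 in STY and -0.89 in WT and was called lower in treated WT than in the treated pool. The other low gene, rsa1, had 0.17 in STY, -1.27 in 10D and -0.32 in WT. The 12 subunits of RNA polymerase I, which transcribes ribosomal RNA, had 0.22 in STY and 0.25 in WT, with 4 lower. Mitochondrial ribosomal protein genes had 0.09 in STY, -0.19 in HA, -0.17 in 10M, -0.32 in 10D and -0.36 in WT, with 14 of 59 lower and 8 higher. Of 22 growth-signalling genes and regulators of ribosomal protein genes 12 were called higher and 1 lower in treated WT, with medians of -0.31 in STY and 0.26 in WT. Among them ifh1, for a coactivator of ribosomal protein genes in budding yeast, had -0.27 in STY and 0.80 in WT, and maf1, for a repressor of RNA polymerase III, had -0.30 in STY and 1.06 in WT. The lowest of them were sck2, a protein kinase gene, with -1.49 in STY and -0.17 in WT, and tsc1, for an inhibitor of TORC1 signalling, with -0.43 in STY and -0.12 in WT. Of 12 housekeeping genes 4 were lower and 1 higher, with medians of 0.23 in STY and -0.17 in WT. Of 14 Sty1-Atf1 stress genes 11 were higher in treated WT than in the treated pool, and among them srx1, the sulfiredoxin gene, had a log2 ratio of 0.56 in STY and 6.84 in WT.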

How the data were processed

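Per the labels' protocols, RNA was extracted with phenol and chloroform and enriched for polyA. The authors deposited 1 table of raw read counts per gene for the 10 libraries. The submitters' processing notes name FastQC, TopHat2 2.1.1 and HTSeq, and the genome build, annotation, strand setting and filters are not given in the sources used here. Counts were whole numbers and were used as deposited. RefSeq ASM294v3 was used only for names, lengths, overlaps and promoter sequences, and 6848 of 7017 IDs matched it. Since the build of the counts is unknown, no genome coordinates are printed.

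The members and lists were chosen with earlier results of these data known. Tests were run across the whole table with edgeR 4.0.16 (R 4.3.3) using TMM factors of 0.919 to 1.11, the default count filter and the quasi-likelihood test, with Benjamini-Hochberg adjustment over all genes tested and a threshold of 0.05. The response common to the strains was fitted with strain and treatment as terms, and the other comparisons with 6 means (WT, 10D and the pool of STY, HA and 10M, each treated and untreated). Both fits have 4 residual degrees of freedom, and their error is the spread between strains. The alternative with strain as a block has 2. P-values measure only the spread between these libraries. Ratios within a strain have no test. They use a prior count of 2, and a 2-fold call needs an exact 95% binomial interval that excludes 1, which covers counting error only. Pairing is by strain, since treated and untreated libraries share a genotype, and the labels give no replicate numbers.

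Genes named are the 8 highest and 8 lowest by common response, the 2 highest and 2 lowest in each strain, the 4 highest and 4 lowest in each comparison, the 6 families with the largest share change, the 6 with the most unequal copies, the 3-copy families and the 5 highest and 5 lowest levels. A gene that this rule also names is not reported here. Of other lists, only some of the 2 highest and 2 lowest by common response are named. The genes called in the pool, the role groups, rpl1602 and rpl4101 per library were chosen after their values were seen. Alternatives were DESeq2 1.42.0, other scalings, no count filter, noncoding genes left out, each strain left out, libraries split by depth, strain as a block and a prior count of 0.5.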

Additional observations from a re-analysis of the deposited data

Results flagged for a closer look

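The share of counts in ribosomal protein genes, treated minus untreated, was 3.69 percentage points in STY, 3.40 in HA and 1.23 in 10M, against -3.71 in WT. These values stand out because the same treatment went with opposite signs in WT and in STY, HA and 10M. In 10D the difference was -0.153 points. With 1 library for each strain and treatment the difference between the strains was not tested for this share.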

How the results depend on the processing

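The number of ribosomal protein genes called depended on the tool and on the strains in the pool more than the direction of the values did, and the cause was not tested. DESeq2 called 10 in the common response, 30 in the pool response, 100 for treated WT against the pool, 6 for the WT response against that of the pool, 5 for treated 10D and 4 for the 10D response. Total counts gave 88 for treated WT, 2 for the WT response and 4 for treated 10D. Without the count filter the pool response had 2. With noncoding genes left out the pool response had 12, the WT response 1 and treated 10D 3. With each strain left out in turn, the count ranged from 0 to 0 for the common response, 0 to 65 for the pool response, 0 to 125 for treated WT, 0 to 49 for the WT response, 0 to 7 for untreated 10D, 0 to 86 for treated 10D and 0 to 17 for the 10D response. A fit of WT, STY and HA alone, and a fit of 10D and 10M alone, called 0 in the common response, with fewer samples. Strain as a block, which pairs treated with untreated libraries, gave 69 for the pool response, 23 for the WT response and 3 for the 10D response, and it cannot be fitted for comparisons within one treatment. The medians of the log2 ratio moved with the scaling. With total counts they were 0.27 in STY, 0.24 in HA, 0.10 in 10M, -0.054 in 10D and -0.43 in WT. With DESeq2 size factors they were 0.48 in STY, 0.44 in HA, 0.19 in 10M, 0.019 in 10D, where the sign turned, and -0.24 in WT. With TMM computed without the ribosomal protein genes they were 0.44 for STY, 0.42 for HA, 0.16 for 10M and -0.27 for WT. A prior count of 0.5 and shares of raw counts in place of counts per length kept the direction of all 16 values they were applied to. This was largely fixed in advance. At these counts the prior barely moves a ratio, and a fixed length cannot reverse the share change of a copy in a pair. The lowest level of a ribosomal protein gene in any library was 37.4 CPM, and no group has a replicate library.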
